A study of Mus musculus with 12 samples.

Results

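The 10 genes described here, Snhg1, Snhg3, Snhg5, Snhg6, Snhg8, Snhg12, Snhg15, Snhg18, Gas5 and Zfas1, are non-coding genes that carry small nucleolar RNAs (snoRNAs) in their introns. They were taken by symbol from the deposited count table of C2C12 cells. All 10 were among its 55385 genes, and all 10 passed the filter on low counts with 15932 genes in total. C2C12 is an immortalised mouse myoblast line whose cells fuse into multinucleate myotubes. It was sequenced as total RNA in 3 undifferentiated samples and in 3 samples after 7 days of differentiation into myotubes, with no genotype difference and no added agent given for either group. The same series holds small RNA libraries of E14TG2a mouse embryonic stem cells, 3 of them untreated (day 0) and 3 treated with retinoic acid for 6 days. Whether the samples within a group were grown as separate cultures is not stated; the p-values therefore reflect sample-to-sample spread that could be technical. The cultures were sequenced in bulk, so fewer cells of a type and less RNA per cell cannot be told apart.

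Most vertebrate snoRNAs are not transcribed from genes of their own but are cut out of introns of a longer host transcript after splicing. Box C/D snoRNAs then guide 2'-O-methylation and box H/ACA snoRNAs guide pseudouridylation of ribosomal and other RNAs. Many hosts encode ribosomal proteins or translation factors, whereas the spliced exons of the genes described here encode no conserved protein. In several of them the spliced transcript is short-lived, because its short reading frames make it a substrate of nonsense-mediated decay. Several also belong to the terminal oligopyrimidine (TOP) class, whose transcripts begin with a C followed by a run of pyrimidines, as the mRNAs of ribosomal proteins do. Gas5 (growth arrest-specific transcript) is known for accumulating when growth or translation stops.

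The start sites of the genes are shown because a TOP tract lies at the start of the transcript. RefSeq promoter windows (GRCm38.p6, which corresponds to the submitters' stated build mm10) matched 9 of the 10 genes, with a pair of starts for Gas5; the gene without a matching entry was Snhg6. A tract was counted where a C within 10 bases of the annotated start was followed by at least 4 further C or T bases on the transcribed strand. Such a tract was found for 6 of the 9 genes, namely Gas5 (at the downstream start), Snhg3, Snhg5, Snhg8, Snhg12 and Snhg18. By window this was 6 of 10, against 30.7% of all 32851 mouse windows. Counted from the annotated start, the C lay at position 2 for Snhg3, 9 for Snhg5 and -4 for Snhg18. A counted tract therefore does not show that the transcript begins with it. The lines give 60 bases before and 30 bases from the annotated start, read 5' to 3' on the gene's strand, with the tract in capitals. On the same build Snhg6 spans chr1:9942025-9944118, Snhg15 chr11:6525591-6528760 and Zfas1 chr2:167062934-167065862. Snhg1 is given as an example with no tract within 10 bases of its annotated start.
Gas5, chr1:161035106-161035195, plus strand: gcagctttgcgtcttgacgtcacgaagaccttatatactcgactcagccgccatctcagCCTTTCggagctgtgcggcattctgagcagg
Snhg12, chr4:132308618-132308707, plus strand: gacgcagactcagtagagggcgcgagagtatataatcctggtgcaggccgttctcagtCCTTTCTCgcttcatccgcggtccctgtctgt
Snhg8, chr3:123508307-123508396, minus strand: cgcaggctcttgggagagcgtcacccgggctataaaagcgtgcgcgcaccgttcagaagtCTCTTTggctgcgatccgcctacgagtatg
Snhg3, chr4:132353657-132353746, minus strand: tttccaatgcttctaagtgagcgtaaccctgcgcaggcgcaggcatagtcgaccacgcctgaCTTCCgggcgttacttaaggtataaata
Snhg5, chr9:88522868-88522957, minus strand: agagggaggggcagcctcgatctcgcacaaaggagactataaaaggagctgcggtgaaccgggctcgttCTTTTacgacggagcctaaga
Snhg18, chr15:32244633-32244722, minus strand: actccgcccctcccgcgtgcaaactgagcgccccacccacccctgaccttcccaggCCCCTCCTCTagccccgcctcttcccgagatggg
Snhg1, chr19:8723427-8723516, plus strand: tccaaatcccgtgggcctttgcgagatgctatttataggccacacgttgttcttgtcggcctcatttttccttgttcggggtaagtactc
In the full windows, 250 bases before to 50 bases after the start and on either strand, the TATA-box letters TATAAA were present for 4 of the 9 genes (Snhg1, Snhg3, Snhg5 and Snhg8) and in 13.6% of all windows. In the lines shown, these letters lie after the annotated start for Snhg3 and read on the opposite strand for Snhg1. A match therefore does not show a TATA box of that start. The E-box CACGTG was present for Snhg15 and in 7.15% of all windows, and CAGCTG also for Snhg15 and in 16.3%.

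Library totals in C2C12 cells ranged from 18335785 to 54083215 counts. Levels below are CPM (counts scaled to library size) after trimmed-mean (TMM) scaling, unless given per length. The labels were checked against markers: 6 of 6 myotube markers (Myh3, Acta1, Tnnt3, Myog, Mymk and Ckm) rose, from a summed 11.5 to 66.2 CPM in myoblast libraries to 3034 to 7485 CPM in myotube libraries. All 8 cycling-cell markers, Mki67 and Top2a among them, fell, from a summed 2729 to 2794 CPM to 1087, 294 and 244 CPM in myotube replicates 1, 2 and 3. Myotube replicate 1 therefore stood apart, with more cycling-cell RNA and less myotube-marker RNA (3034 CPM against 7485 and 6758). Of 3 myoblast markers Des rose, Myf5 fell and Myod1 was not called (adjusted p = 0.502). Of 4 adipocyte markers, Adipoq and Cidec were at 0 in all libraries and the 4 together had 2 counts. The 4 osteoblast markers summed to 0.387 to 4.97 CPM, and Dmp1, the only one tested, was not called (adjusted p = 0.233).

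Host gene RNA was lower in myotubes for most of the 10 genes and higher for one. Together they made up 490, 384 and 463 CPM in the myoblast libraries and 305, 240 and 237 CPM in the myotube libraries, a mean of 446 ± 54.9 against 261 ± 38.0 CPM (SD, n = 3). In edgeR's quasi-likelihood test across all genes (adjusted p under 0.05), 7 fell (Snhg1, Snhg3, Snhg5, Snhg6, Snhg12, Snhg15 and Gas5), Snhg18 rose, and Zfas1 and Snhg8 were not called. Of all tested genes 40.1% were called in either direction, 19.6% lower and 20.5% higher. The groups did not overlap for 8 genes that were lower in myotubes and for Snhg18, which was higher, and over all tested genes for 27.2% and 28.7%. The median log2 fold change was -0.71 over the 10 genes and 0.06 over all tested genes, and scaling by library size alone moved the latter to -0.07.

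**Figure D1:**
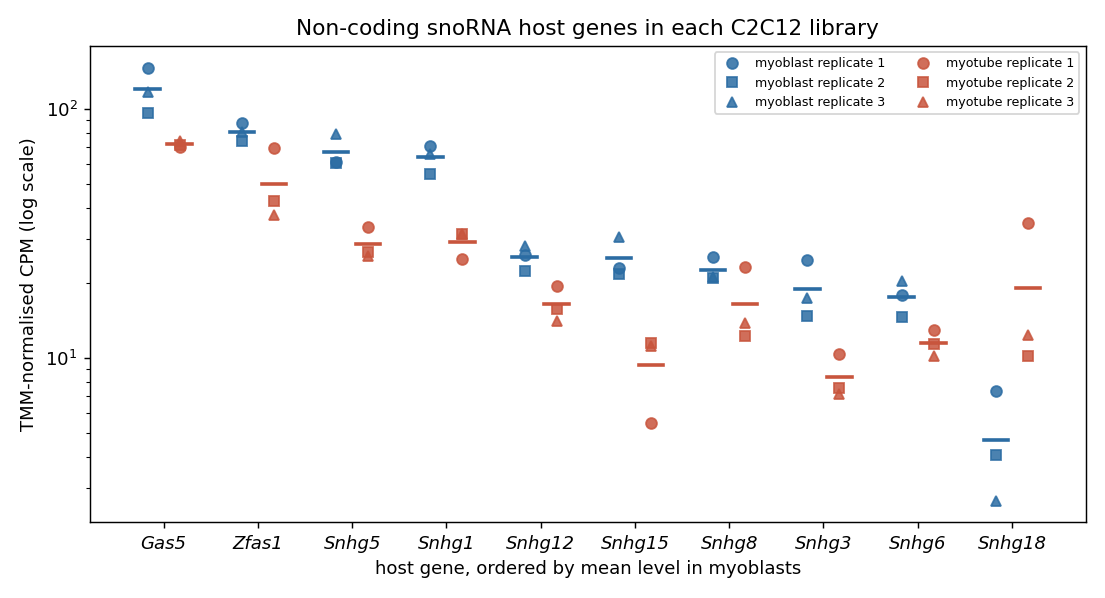
TMM-normalised CPM (log scale) of each host gene in the 3 myoblast (blue) and 3 myotube (red) libraries, with bars at the group means. Snhg18 is the only gene whose myotube libraries all lie above its myoblast libraries, and Snhg8 is the only one whose groups overlap.

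Snhg1, Snhg3, Snhg5 and Snhg15 had the largest falls. Snhg1, which holds 8 annotated snoRNA genes and is known as the host of box C/D snoRNAs from U22 to U31, stood at 70.9, 54.8 and 65.8 CPM in myoblasts and 24.9, 31.3 and 31.4 CPM in myotubes; its log2 fold change was -1.13 with an SE of 0.18 (adjusted p = 0.00231). Snhg5, the host of the U50 box C/D snoRNAs, was at 61.1, 60.8 and 78.9 CPM and then at 33.5, 26.5 and 25.7 CPM (-1.23 ± 0.19, adjusted p = 0.00197). In both genes each myotube library lay below each myoblast library by a wide gap. Snhg3, the host of the box H/ACA snoRNA U17 that acts in pre-rRNA cleavage, was at 24.6, 14.7 and 17.4 CPM in myoblasts and at 10.4, 7.59 and 7.13 CPM in myotubes (-1.18 ± 0.27, adjusted p = 0.00962). Snhg15 had the largest fall in the fit, from 23.0, 21.7 and 30.6 CPM to 5.45, 11.4 and 11.2 CPM (-1.42 ± 0.31, adjusted p = 0.00813). Its lowest value was that of myotube replicate 1, while that library was the highest of the myotube group for Snhg3 and Snhg5. These 4 genes were called lower in all 13 alternative settings tried.

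Gas5, Snhg6 and Snhg12 fell less. Gas5, the most abundant of the 10 by CPM, was at 146, 95.8 and 117 CPM in myoblasts and at 70.5, 71.6 and 74.1 CPM in myotubes (log2 fold change -0.73 ± 0.19, adjusted p = 0.0173). The myotube libraries lay close together and below all myoblast libraries; its call was lost without myotube replicate 3 (adjusted p = 0.0554). Gas5 was lower, not higher, in the cultures in which the cycling-cell markers had fallen. Snhg12, which holds box H/ACA snoRNA genes and Snord99, went from 25.8, 22.4 and 28.1 to 19.4, 15.7 and 14.03 CPM (-0.63 ± 0.20, adjusted p = 0.0336). Snhg6, the host of Snord87, went from 17.9, 14.5 and 20.3 to 12.9, 11.3 and 10.1 CPM (-0.61 ± 0.21, adjusted p = 0.0477). For both genes the groups came close without overlapping. The call of Snhg12 was lost without any one library other than myotube replicate 1 (adjusted p from 0.0542 to 0.122). That of Snhg6 was kept in only 4 of the 13 alternatives and was lost with the replicate block (adjusted p = 0.0624).

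Zfas1 and Snhg8 were not called, and in both the values of myotube replicate 1 lay near those of the myoblasts. Zfas1, known as the host of Snord12 snoRNAs, stood at 87.4, 74.5 and 80.9 CPM in myoblasts and at 69.8, 42.5 and 37.4 CPM in myotubes (log2 fold change -0.70 ± 0.25, adjusted p = 0.0538). Snhg8, the host of Snora24, was at 25.3, 20.9 and 21.2 CPM and then at 23.2, 12.3 and 13.7 CPM (-0.46 ± 0.26, adjusted p = 0.198). Without myotube replicate 1, the library with the highest cycling-cell marker level of its group, both were called lower (Zfas1 -1.04, adjusted p = 0.00164; Snhg8 -0.82, adjusted p = 0.00828). The part of the cycling cells in this was not tested. With all 6 libraries Zfas1 was also called lower with the replicate block (-0.75, adjusted p = 0.0226), with median-of-ratios (0.0485) or library size scaling (0.0285), with no filter on low counts (0.0174), with DESeq2 (0.0322) and with limma-voom (0.039997). It was thus called in 7 of the 13 alternatives, and Snhg8 in 1.

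Snhg18 alone rose. Snhg18, whose intron holds Snord123, stood at 7.34, 4.07 and 2.67 CPM in myoblasts (439, 167 and 57 counts) and at 34.7, 10.1 and 12.3 CPM in myotubes (897, 311 and 213 counts), and its log2 fold change was 2.01 with an SE of 0.55 (adjusted p = 0.0223). The groups did not overlap, and myotube replicate 1 stood well above the other myotube libraries. These lay closer to the highest myoblast library than to myotube replicate 1. Myotube replicate 1 also had the most cycling-cell RNA of its group and the least myotube-marker RNA (3034 CPM against 7485 and 6758). Myoblast replicate 1, the highest myoblast library for Snhg18, likewise had the least myotube-marker RNA of its group (11.5 CPM against 36.3 and 66.2). The part of these differences in the level of Snhg18 was not tested. Without myotube replicate 1 the log2 fold change was 1.21 (adjusted p = 0.0379). The call was lost without myoblast replicate 2 (adjusted p = 0.0783) or 3 (adjusted p = 0.0743), or without a filter on low counts (adjusted p = 0.0797). As a share of the summed CPM of the 10 genes, Snhg18 was 0.577 to 1.498% in myoblasts and 4.22 to 11.4% in myotubes.

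**Figure D2:**
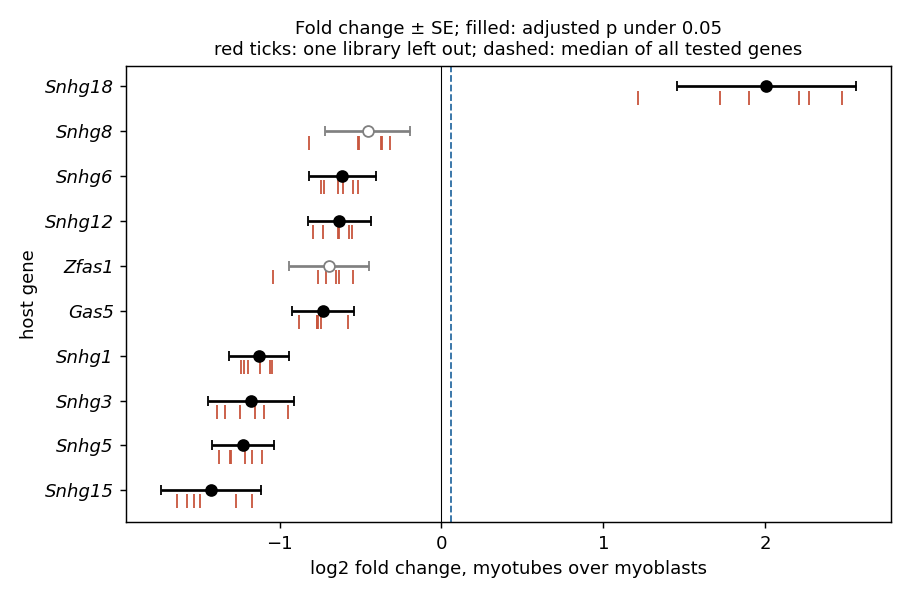
Log2 fold change of each host gene in myotubes over myoblasts (points, bars ± SE), filled where the adjusted p was under 0.05, with red ticks for the fits that leave out 1 library and a dashed line at the median of all tested genes (0.06). Snhg18 lies at 2.01 and the other genes between -1.42 and -0.46.

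Ordered by level per length, as TPM (length-scaled transcript abundance) computed from the deposited gene lengths, Zfas1 was the highest in myoblasts with 125 ± 10.6 TPM, followed by Gas5 with 92.3 ± 7.78 and Snhg8 with 77.1 ± 3.71 TPM (SD, n = 3). These were followed by Snhg1 (62.9 ± 5.85 TPM), Snhg3 (55.2 ± 6.33), Snhg5 (54.8 ± 13.4) and Snhg6 (45.1 ± 9.11). Snhg12 (31.2 ± 5.23 TPM), Snhg15 (28.1 ± 7.54) and Snhg18 (8.92 ± 3.25) were the lowest. The ranges of neighbours in this order overlapped between Snhg1 and Snhg3, Snhg3 and Snhg5, Snhg5 and Snhg6, and Snhg12 and Snhg15, and the other neighbours lay apart. In myotubes the order was Zfas1 (66.3 ± 33.2 TPM), Snhg8 (47.9 ± 23.9), Gas5 (46.7 ± 10.7), Snhg18 (32.7 ± 27.3), Snhg6 (24.9 ± 8.24), Snhg1 (23.9 ± 5.82), Snhg3 (21.2 ± 8.12), Snhg5 (19.5 ± 6.56), Snhg12 (17.0 ± 6.16) and Snhg15 (8.44 ± 3.45), and the ranges of all neighbours overlapped. Within single libraries, however, Zfas1 stood above Snhg8, Snhg3 above Snhg5, Snhg5 above Snhg12 and Snhg12 above Snhg15 in 3 of 3 myotube libraries. TPM values are shares of each library without TMM scaling. Their spread between libraries and groups, and the overlaps, therefore also reflect differences in the make-up of whole libraries. Gas5 in myotubes was at 51.5, 54.3 and 34.5 TPM, against 70.5, 71.6 and 74.1 CPM after TMM scaling. Snhg18 was the last of the 10 in each myoblast library and stood at 64.1, 19.4 and 14.5 TPM in myotube replicates 1, 2 and 3, which placed it at rank 3, 8 and 6. By mean TPM it was at rank 4 in myotubes, and without myotube replicate 1, an alternative chosen after seeing the data, at 17.0 TPM and rank 7. Among all tested genes by mean TPM, Snhg18 was at percentile 44.1 in myoblasts and 78.2 in myotubes, or 64.1 without that library. Snhg15 was at percentile 68.8 and 45.3, and was the last of the 10 in each myotube library.

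The deposited lengths limit what these levels mean. For 6 genes (Gas5, Snhg1, Snhg5, Snhg8, Snhg12 and Snhg15) the deposited length was 0.837 to 1.97 times the whole RefSeq span, introns included. For Snhg3, Snhg6, Snhg18 and Zfas1 it was 0.363 to 0.649 times the span. RefSeq places 31 snoRNA genes inside the 10 spans, of which 13 have a row of the same symbol in the count table. All 7 of these that lie in the first set of hosts had 0 counts in all 6 libraries (Snord22, Snora24, Snora16a, Snora44, Snora61, Snord99 and Snord47). In the second set 5 of 6 had counts, and Snord12 had none. The zeros are therefore not read as absent snoRNAs. How reads that lie in both a snoRNA gene and an exon of its host were counted is not given in the sources used here, which limits what a ratio of a snoRNA gene to its host measures.

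The snoRNA genes with counts differed in how their level related to that of the host. Snora73b, 1 of the 2 U17 genes inside Snhg3, was at 129, 93.5 and 75.6 CPM in myoblasts and at 254, 239 and 98.9 CPM in myotubes (log2 fold change 0.99 ± 0.36, adjusted p = 0.0608). Snhg3 itself fell, so the log2 ratio of Snora73b to Snhg3 within a library was 2.38, 2.67 and 2.12 in myoblasts and 4.62, 4.98 and 3.79 in myotubes. Every myotube ratio lay above every myoblast ratio, with a mean difference of 2.07 (exact permutation test, two-sided p = 0.1, the smallest that 3 against 3 allows). Snora73a, the second U17 gene of the same host, had 9 to 120 counts per library, a change of -1.03 ± 0.50 on the log2 scale (adjusted p = 0.132) and a ratio to Snhg3 that differed by 0.04 between the groups. U17 genes are near-identical in sequence, so the division of reads between them is uncertain. Gm23201, a snoRNA gene inside Zfas1, fell from 10.8, 5.48 and 7.36 CPM to 2.01, 2.48 and 2.09 CPM (-1.85 ± 0.35, adjusted p = 0.00434). Its log2 ratio to Zfas1 was lower by 1.05 in myotubes without overlap (-3.41 ± 0.38 against -4.46 ± 0.57, SD, n = 3, exact permutation p = 0.1). Snord87 of Snhg6 had 4 to 54 counts per library and was not called (adjusted p = 0.209). Snord123 of Snhg18 had 2 to 34 counts and did not pass the filter.

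For 4 host genes, the level was also set against that of the gene that starts beside it on the opposite strand. Sema5a, a semaphorin gene that starts 151 bases from Snhg18, was at 90.0, 99.2 and 98.5 CPM in myoblasts and at 135, 64.3 and 67.1 CPM in myotubes, with no call in the test (-0.11 ± 0.29 on the log2 scale, adjusted p = 0.772). The log2 ratio of Snhg18 to Sema5a was higher by 2.12 in myotubes, with no overlap (-4.48 ± 0.80 against -2.36 ± 0.36, SD, n = 3). Myotube replicate 1 was the highest myotube library for both genes. Zbtb37, a zinc finger gene that starts 248 bases from a Gas5 start and overlaps Gas5 by 264 bases, rose from 28.5 ± 5.51 to 57.2 ± 13.97 CPM (log2 fold change 1.005 ± 0.24, adjusted p = 0.0120), while Gas5 fell. Znfx1, which starts 81 bases from Zfas1, was at 79.3 ± 5.66 and 94.5 ± 6.16 CPM (0.25 ± 0.15, adjusted p = 0.217). The log2 ratio of Zfas1 to Znfx1 was 0.03, -0.02 and 0.08 in myoblasts and -0.48, -1.21 and -1.22 in myotubes. Slc3a2, an amino acid transporter subunit gene that starts 118 bases from Snhg1, was at 148 ± 25.9 and 118 ± 14.7 CPM (-0.32 ± 0.19, adjusted p = 0.205), and the ratio of Snhg1 to it was lower by 0.81 on the log2 scale. Reads in the overlaps could not be assigned with certainty, since the strand setting of the counting is not given in the sources used here. For each of the 4 pairs with neighbouring starts the groups' ratios did not overlap (exact permutation p = 0.1, the smallest possible, and 0.15 after adjustment over the 12 ratios computed).

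**Figure D3:**
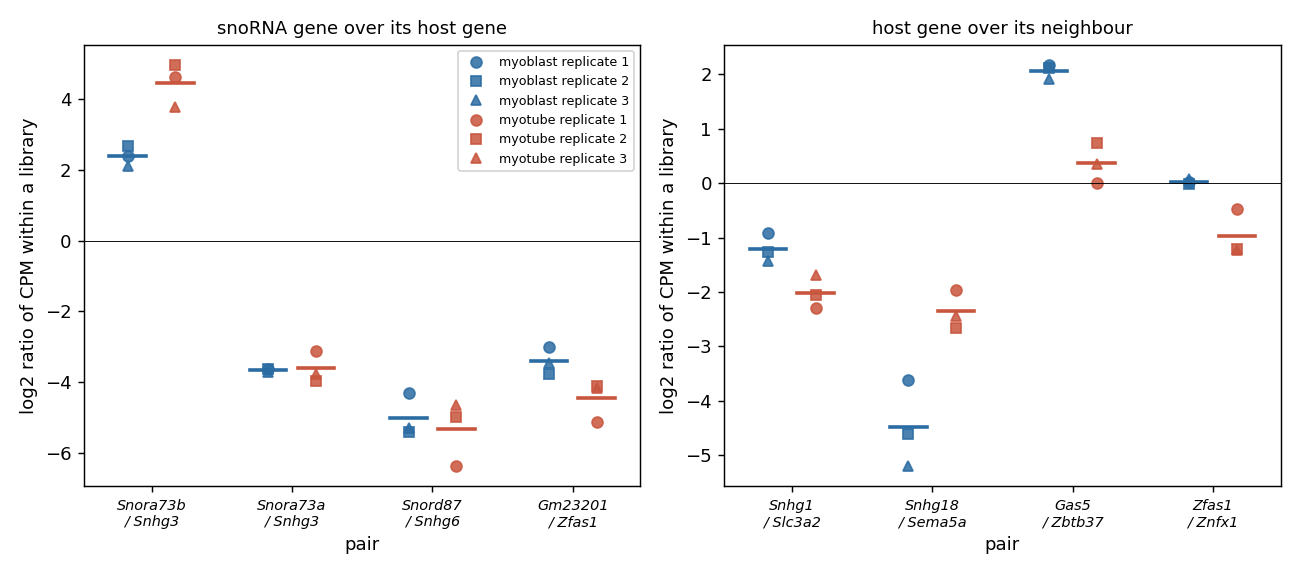
Log2 ratio of CPM within each library, for snoRNA genes over their host gene (left) and for host genes over the gene that starts beside them (right), with bars at the group means. Snora73b over Snhg3 and Snhg18 over Sema5a are higher in all 3 myotube libraries, by a mean of 2.07 and 2.12.

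Other non-coding snoRNA hosts moved in both directions. Of 12 listed, 9 symbols were tested in 10 rows (Snhg4 has a pair of identifiers). Of these rows 4 were lower and 1 was higher, with a median log2 fold change of -0.83. Over all tested genes 19.6% were called lower and 20.5% higher. Dancr fell from 8.95 ± 2.84 to 2.89 ± 0.330 CPM (-1.63 ± 0.33, adjusted p = 0.00595) and Snhg16 changed by -1.11 ± 0.26 (adjusted p = 0.0111). Epb41l4aos changed by -1.25 ± 0.42 and 1 of the Snhg4 rows by -0.92 ± 0.30. Snhg14, the long host transcript of the imprinted Snord115 and Snord116 clusters, rose from 1.28 ± 0.217 to 7.21 ± 1.91 CPM (SD, n = 3; 2.48 ± 0.35, adjusted p = 0.00132). Snhg18 and Snhg14 were thus the hosts called higher among the 20 rows of both lists.

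Protein-coding hosts and TOP mRNAs had medians close to that of the 10 genes. Of 52 protein-coding snoRNA hosts 27 fell and 2 rose, with a median log2 fold change of -0.71. For this and the next lists, the shares over all tested genes were 19.6% lower and 20.5% higher. The ribosomal protein gene Rpl4 changed by -0.89 ± 0.21 (adjusted p = 0.0108), Rpsa by -0.94 ± 0.31 (adjusted p = 0.0438) and the chaperone gene Hspa8 by -0.99 ± 0.25 (adjusted p = 0.0156). The elongation factor gene Eef2 was not called (-0.29 ± 0.23, adjusted p = 0.350). Of 18 TOP mRNAs outside the ribosomal proteins 11 fell and 7 were not called (median -0.74), with Vim (vimentin) at -1.61 ± 0.34 (adjusted p = 0.00696), Eef1a1 at -0.45 ± 0.27 (adjusted p = 0.210) and Rack1 at -0.66 ± 0.26 (adjusted p = 0.0724). Some genes, such as Eef2 and Rack1, are on both lists. Of 17 factors of nonsense-mediated decay 11 fell and 1 rose (median -0.84). Eif4a3, of the exon junction complex, changed by -1.39 ± 0.23 (adjusted p = 0.00246) and Smg5 by -0.84 ± 0.24 (adjusted p = 0.0253), while Smg1 (0.10 ± 0.21) was not called. Upf1, the central helicase of the pathway, changed by -1.32 ± 0.25 (adjusted p = 0.00427), and Smg6, an endonuclease of the pathway and the gene that rose, by 0.89 ± 0.17 (adjusted p = 0.00463); both were named after their values were seen. Over the 6 libraries, the genes whose log2 CPM followed Gas5 most closely were Mrps5 (Pearson r = 0.993), 5430416N02Rik (0.990), Deaf1 (0.990), Tmem186 (0.989) and Eif3c (0.986), as a description of libraries that fall into 2 groups.

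Mature snoRNAs named after the H/ACA genes inside these hosts were measured in the other cells of the series. In E14TG2a stem cells, 6 SNORA families correspond by name to snoRNAs known from the hosts: SNORA73 (Snhg3), SNORA24 (Snhg8), SNORA16, SNORA44 and SNORA61 (Snhg12) and SNORA9 (Snhg15). Each family pools 2 to 10 annotated transcripts, so copies at other loci are included, and values are relative to the other SNORA families. After retinoic acid, SNORA44 fell, from 29330, 27892 and 43550 CPM of SNORA counts to 4760, 5721 and 5404 CPM, and the other 5 families were not called. Of the 70 tested families 22.9% were called, 15.7% lower and 7.14% higher, and the groups did not overlap, with lower values after retinoic acid, for 18.6%. All families had a median log2 fold change of 0.25 (0.15 with median-of-ratios scaling). SNORA16 was at 6895, 6791 and 6270 CPM before and 4457, 7240 and 7171 CPM after (log2 fold change -0.08 ± 0.35, adjusted p = 0.848). SNORA61 was at 639, 332 and 983 CPM before and 490, 2324 and 2772 CPM after (1.52 ± 0.68, adjusted p = 0.126). The groups of both overlapped. The log2 ratio of SNORA44 to SNORA16 was 2.31 ± 0.42 without and -0.22 ± 0.27 with retinoic acid, and that to SNORA61 was 5.79 ± 0.52 and 1.85 ± 1.25 (SD, n = 3), with no overlap in either (exact permutation p = 0.1, the smallest possible). SNORA9 was at 27853 ± 8228 and 57013 ± 39236 CPM (1.03 ± 0.56, adjusted p = 0.211) and SNORA24 at 1540 ± 476 and 1191 ± 909 CPM (-0.37 ± 0.57, adjusted p = 0.654). In both, retinoic acid replicate 1 stood apart from the other treated libraries, at 18162 CPM against 56255 and 96622 for SNORA9 and at 2239 CPM against 711 and 623 for SNORA24. Untreated replicate 2 was likewise the lowest of its group for SNORA9 (19664 CPM) and the highest for SNORA24 (2015 CPM). Without retinoic acid replicate 1, SNORA61 (1.71, adjusted p = 0.00250) and SNORA9 (1.20, adjusted p = 0.00772) were called higher and SNORA24 (-1.42, adjusted p = 0.0211) lower. The host transcripts of the stem cells were not analysed here, so these values are not set against those of the C2C12 hosts.

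**Figure D4:**
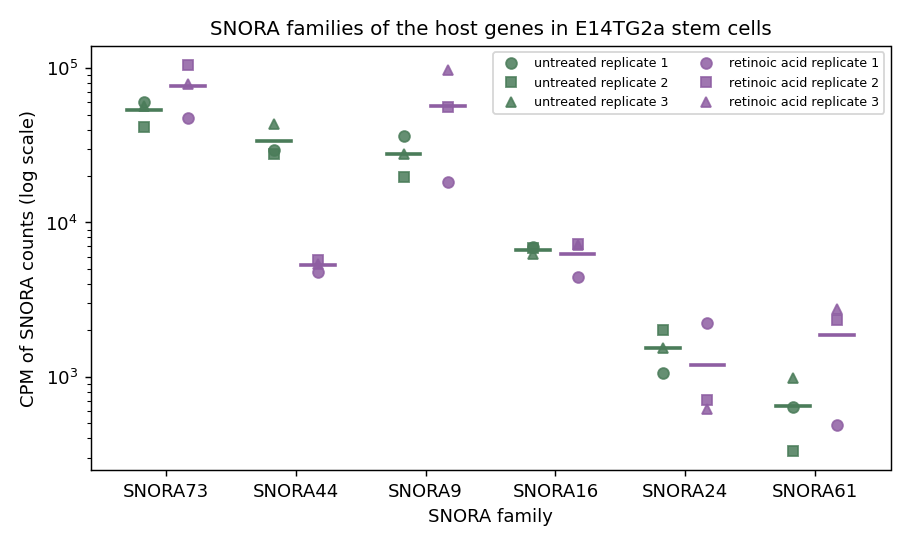
CPM of SNORA counts (log scale) of the 6 families named after snoRNAs of the host genes, in 3 untreated (green) and 3 retinoic acid (purple) libraries of E14TG2a cells, with bars at the group means. SNORA44 is lower in all 3 retinoic acid libraries, and the groups of the other families overlap.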

How the data were processed

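Total RNA of C2C12 cells was sequenced with a stranded, ribosome-depleting kit and size-selected small RNA of E14TG2a cells after template-switching reverse transcription, per the labels' protocols. The submitters' processing notes name STAR 2.5.1b, featureCounts 1.5.1, Salmon 0.12.0, DESeq2 1.18.1 and build mm10, with no step for each. The authors deposited raw counts per gene, with gene lengths, for C2C12 cells, and estimated counts per SNORA family, already whole numbers, for stem cells. The stem cell totals were 3743671 to 4995747 in untreated and 1496450 to 2732639 in retinoic acid libraries, so depth was lower in every treated library. The deposited normalised tables were not used.

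Tests used edgeR 4.0.16 (R 4.3.3) with filterByExpr by group, TMM scaling and the quasi-likelihood F-test (robust) over all tested genes or families. Benjamini-Hochberg adjustment was used, with a threshold of 0.05. The term "adjusted p" refers to this test unless DESeq2 (1.42.0) or limma-voom is named. The script was tested on simulated counts. SE is the absolute log2 fold change over the square root of F. Ratios within libraries were compared by exact two-sided permutation tests (scipy 1.17.1).

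The genes and lists were chosen with earlier results of these data known. Named genes were the 10 hosts, tested snoRNA genes inside them, neighbours starting within 1 kb on the opposite strand or overlapping a host, up to 4 tested genes of each related list with the highest mean level, and the 5 genes most correlated with the host of highest mean CPM. Other genes, among them all those of the other non-coding hosts and Gm23201, were named after their values were seen. Some genes that the rule names are not reported here.

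In C2C12 cells, deviations from the group mean correlated at 0.232, 0.189 and 0.170 between samples of the same number. The highest correlation was between myoblast replicate 3 and myotube replicate 2 (0.358), so these values do not single out same-number pairs. Since the labels do not say whether replicate numbers mark shared cultures, a replicate block was used only as an alternative. Alternatives were median-of-ratios and library size scaling, other filters on low counts, DESeq2, limma-voom (limma 3.58.1), the replicate block and leaving out each library.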

Additional observations from a re-analysis of the deposited data

How the results depend on the processing

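No fold change of the 10 hosts turned its direction in the 130 values from alternatives, of which 104 kept their side of the threshold, 18 lost and 8 gained a call. The number of hosts called lower was 4 to 9 and the number called higher 0 to 1 when 1 library was left out, and 0 were higher with no filter on low counts (1 at an unadjusted p under 0.05, edgeR). The 4 came from leaving out myotube replicate 3 and the 9 from leaving out myotube replicate 1. Both fits have 1 sample fewer, and the cause of the difference was not tested. With the replicate block, 7 hosts were lower and 1 higher, with Zfas1 gained (adjusted p = 0.0226) and Snhg6 lost (0.0624), and no other call of a host changed. Snhg6 was also lost when a mean count of 50 was required (adjusted p = 0.0641) and with limma-voom (0.0664). The summed level of the hosts was 424 to 476 CPM in myoblasts and 239 to 273 CPM in myotubes over the fits leaving out 1 library. Over all C2C12 genes, 2430 to 3599 were higher and 2127 to 3517 lower when 1 library was left out.

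Of the 6 SNORA families, 0 to 2 were higher and 1 to 2 lower when 1 library was left out, and of all 70 families 0 to 15 and 8 to 20. The 0 came without untreated replicate 2 or 3 (5 and 6 families higher at an unadjusted p under 0.05, edgeR). In all, 3 families were higher with library size scaling and 1 with the replicate block. The replicate numbers did not pair these samples (correlations -0.638, -0.458 and 0.0488). The highest correlation was between untreated replicate 2 and retinoic acid replicate 1 (0.873), and its cause was not tested. None of the 6 was higher by edgeR or DESeq2 in the full set (0 and 1 at an unadjusted p under 0.05). Low counts limit Snord87, Snora73a and Snord123.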
